A study of Mus musculus with 16 samples.

Results

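The odor response of 1 sorted cell fraction of the mouse olfactory mucosa was measured on 8 of the 16 arrays of the series, those whose titles name GFP+ cells. Of these, 4 arrays held cells of odor-exposed pools and 4 held cells of vehicle-exposed pools. They were chosen by title alone. All mice were C57BL/6, of both sexes, 7 to 12 weeks old, and all carried S100a5-tauGFP, a fluorescent reporter tied to the gene S100a5. Each array held the RNA of a pool of 3 mice, with 24 mice in the series, and the other fraction of the same pools is on the remaining 8 arrays. Mice were kept singly for 40 h in chambers with clean air at 3.1 L per min. From 26 h on, the odor group received pulses of undecanal mixed with bourgeonal for 10 s every 20 min, and the vehicle group received filtered air on the same schedule. The reporter reads activity of S100a5 only, so the sort was made on that gene and not on a marker of each cell type. The fractions nevertheless differed in cell type markers, as given below. The labels do not say how pools were balanced for sex or age.

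The olfactory mucosa holds olfactory sensory neurons (OSNs), the cells that detect odors, beside supporting cells, glands, stem cells and blood cells. A mature OSN expresses 1 of the many olfactory receptor genes. Odorant binding opens an ion channel through a G protein and cyclic AMP, and neuronal activity then sets the level of further genes. S100a5, a calcium-binding protein gene, is one of these. Kirrel2 and the protocadherin Pcdh10 are others, and both encode surface proteins with roles in sorting OSN axons by identity. Undecanal and bourgeonal are aldehydes. Olfr16 (also MOR23) and Olfr2 (also I7) are receptors known to respond to aldehydes.

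The titles and the cell type field of the labels give opposite fluorescence for each of the 16 samples. The cells titled GFP+ here are called GFP− in that field, and the titles were kept as names. S100a5 was lower in the cells titled GFP+ than in the cells titled GFP− of the same pools, on average by 1.31 log2 units with odor and by 1.00 with vehicle. This goes against the titles, so the labelled fluorescence of these cells is uncertain. Cell type markers differed between the fractions too. Neutrophil genes had a mean level of 12.18 to 14.40 in the cells titled GFP+ and 5.14 to 5.74 in those titled GFP−. Immature OSN genes read 11.69 to 12.15 and 9.73 to 10.11. Genes of odorant transduction and mature OSNs read 15.80 to 16.04 and 16.12 to 16.24. Odor and vehicle are compared below within the cells titled GFP+, so the direction of each difference does not depend on the name of the fraction.

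All values below are log2 array signals as deposited, for 19572 features with 1 gene symbol each. Pairs of replicates within the odor group or the vehicle group titled GFP+ had a correlation over these features of 0.979 to 0.995. A feature was counted as above background on an array when it exceeded the 95th percentile of that array's 5222 negative control probe sets. By this measure 21.2% to 26.4% of features were above background on the odor arrays and 28.2% to 36.3% on the vehicle arrays. The median negative control read 6.06, 5.77, 5.78 and 5.76 on odor replicates 1 to 4 and 5.11, 5.70, 5.29 and 5.13 on vehicle replicates 1 to 4. The groups did not overlap in this technical measure (difference 0.53 log2 units, exact two-sided permutation p = 0.0286, the smallest that 4 arrays against 4 can give, and 0.128 after Benjamini-Hochberg adjustment over 9 such tests). Odor replicate 1 had the highest negative control level and also stood apart on the first principal component, which held 40.9% of the variance of the 8 arrays (−63.5 against −1.9 to 31 for the other odor arrays). Vehicle replicate 1 lay on the same side at −34.2, against 3.1 to 35 for the other vehicle arrays. The main list medians are given with and without odor replicate 1. The part of the background difference in any result below was not tested.

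**Figure D1:**
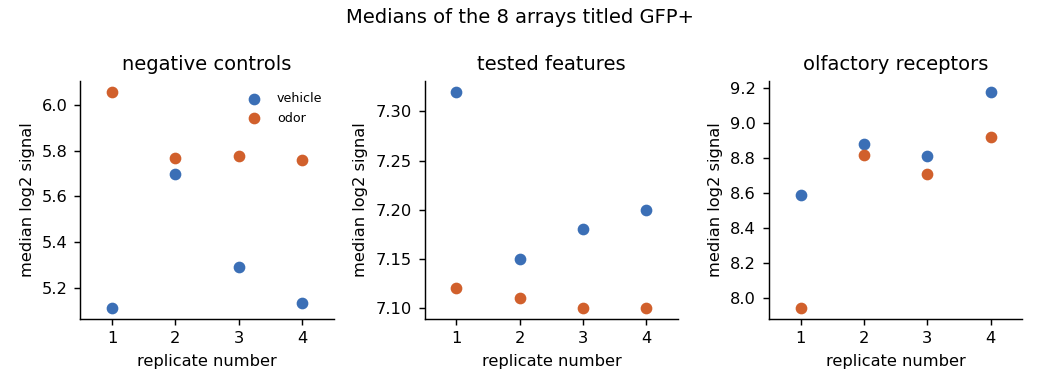
Median log2 signal of the negative controls, of all tested features and of the olfactory receptors on each of the 8 arrays titled GFP+, by replicate number on the horizontal axis, with odor in orange and vehicle in blue. Negative controls lie higher on all odor arrays (5.76 to 6.06 against 5.11 to 5.70), tested features lower (7.10 to 7.12 against 7.15 to 7.32), and the receptor median of odor replicate 1, at 7.94, lies below all others.

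Defining markers were read first to see which cells the fraction held. Omp, the marker of mature OSNs, read 18.31, 18.51, 18.51 and 18.38 on the odor arrays and 18.49, 18.50, 18.53 and 18.40 on the vehicle arrays. Of 18 genes of odorant transduction and mature OSNs, 17 were above background on at least 4 of the 8 arrays. Neutrophil genes were high too: S100a8, a calcium-binding protein of neutrophil granules, read 14.71 to 16.05 with odor and 14.28 to 16.18 with vehicle, and 13 of 14 neutrophil genes were above background on at least 4 arrays. Cyp2g1, a cytochrome P450 of supporting (sustentacular) cells, read 13.71 to 14.83 with odor and 13.58 to 14.69 with vehicle. No endothelial or mesenchymal marker of 11 was above background on any array. Markers of OSNs, neutrophils and supporting cells were thus present in both groups. In such bulk RNA a smaller number of cells of a type cannot be told apart from less RNA per cell.

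Across all genes, no feature passed in the comparison of odor with vehicle that was fitted without pairing (limma, Benjamini-Hochberg adjusted p under 0.05, 0 of 19572 features or 0%). The smallest adjusted p was 0.30. At an unadjusted p under 0.05 there were 806 features higher with odor (4.12%) and 1210 lower (6.18%). Groups that did not overlap, with every odor array above every vehicle array, occurred for 436 features (2.23%), and with every odor array below for 596 (3.05%). The median difference over all features was −0.03. When the replicate number was added to the model as a block, 1 feature passed (0.00511% of those tested). It was Pcdh10, which rose with odor.

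Pcdh10 encodes protocadherin 10, a homophilic adhesion protein. Its log2 signal on odor replicates 1 to 4 was 10.98, 10.01, 9.65 and 9.89. On vehicle replicates 1 to 4 it was 8.85, 7.99, 8.41 and 8.54. Every odor array lay above every vehicle array, and the differences within equal replicate numbers were 2.12, 2.03, 1.25 and 1.35. The mean difference was 1.69 ± 0.31 (SE, limma without the block, adjusted p = 0.30). With the replicate block over all 16 arrays it was 1.69 ± 0.17 (SE, limma adjusted p = 0.0031). That fit treated both fractions of a pool as independent, although they came from the same mice. Its SE and adjusted p rest on that assumption. With the block fitted to the 8 arrays titled GFP+ alone, Pcdh10 again ranked first by p among all features but did not pass (limma adjusted p = 0.277). An exact two-sided permutation test of this gene alone gave p = 0.0286, or 0.128 after adjustment over 9 tests.

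The size of the Pcdh10 difference is uncertain because of its low level. It exceeded the 95th percentile of the negative controls on 1 of 4 odor arrays and on 0 of 4 vehicle arrays, and it exceeded the 75th percentile, a threshold added later, on all 8. No fold is therefore given. The blocked call held with each of the 8 arrays left out in turn, with differences of 1.54 to 1.82 and adjusted p of 0.0039 to 0.0297. It held without odor replicate 1 (1.6, adjusted p = 0.0288). Without both replicate 1 arrays, an alternative added later, the difference was 1.54 and the call was lost (adjusted p = 0.0891 with the block). Centring each array on its negative controls lowered the difference to 1.15 (limma adjusted p = 0.0058 with the block and 0.0191 without it). In that setting 8875 features were called lower without the block, and 10989 features in all with it. The adjustment is more lenient where so many features pass, so these adjusted p add no support for Pcdh10.

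Pcdh10 was also higher with odor in the other fraction of the same pools. In the cells titled GFP− it read 11.77, 11.26, 10.88 and 10.98 with odor and 10.27, 9.50, 9.08 and 9.08 with vehicle, again with no overlap. The difference there was 1.74 ± 0.31 (SE, adjusted p = 0.77 without and 0.0022 with the replicate block). The change in titled GFP+ cells minus that in titled GFP− cells was −0.05 ± 0.44 (SE, limma, exact permutation p over pools = 0.914). Since most vehicle values of both fractions lie below background, this does not show that the changes were alike in size. Both fractions came from the same pools, so the second is not an independent set of animals.

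**Figure D2:**
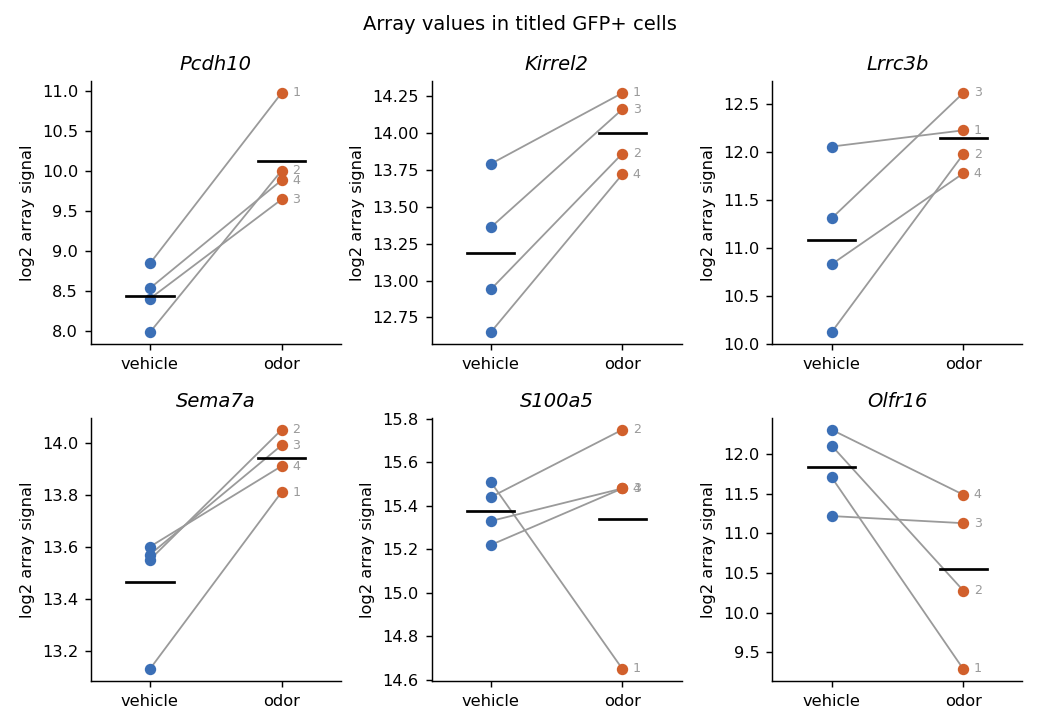
Log2 array signal of 6 genes in the titled GFP+ cells, each panel with vehicle arrays in blue, odor arrays in orange, grey lines joining arrays of equal replicate number (printed at the right) and black bars for group means. Pcdh10 and Sema7a do not overlap between groups, Kirrel2 and Lrrc3b are higher with odor in all 4 number pairs with overlapping groups, S100a5 is lower in odor replicate 1 alone, and Olfr16 is lower in all 4 pairs. The vertical axes do not start at 0.

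The sequence ahead of the Pcdh10 start is shown because it is the gene that was called, beside that of S100a5, the gene that drives the reporter. Both come from RefSeq (GRCm38.p6), each as the 250 bases before the annotated start on the plus strand, 5′ to 3′. Pcdh10 lies at chr3:45378148-45378397 and S100a5 at chr3:90608272-90608521. Capitals mark the letters TGACG, searched on both strands, the core letters of the cyclic AMP response element.
Pcdh10: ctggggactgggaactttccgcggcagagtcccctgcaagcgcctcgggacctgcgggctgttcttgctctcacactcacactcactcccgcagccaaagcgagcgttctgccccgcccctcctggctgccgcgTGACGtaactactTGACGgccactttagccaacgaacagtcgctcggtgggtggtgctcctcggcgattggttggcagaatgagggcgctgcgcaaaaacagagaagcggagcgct
S100a5: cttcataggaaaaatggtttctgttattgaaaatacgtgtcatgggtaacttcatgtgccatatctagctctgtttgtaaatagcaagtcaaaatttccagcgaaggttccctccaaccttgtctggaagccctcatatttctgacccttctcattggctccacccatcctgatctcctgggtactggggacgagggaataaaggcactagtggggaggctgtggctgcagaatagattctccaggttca
TGACG occurred in the Pcdh10 window 2 times, starting 116 and 103 bases before the annotated start, and 0 times in the S100a5 window. It occurred in 17.8% of 32851 RefSeq windows of the same length. The full palindrome TGACGTCA, which contains TGACG, was in 1.55% of windows and the AP-1 letters TGANTCA in 6.75%, and neither was in the Pcdh10 or S100a5 window. Of the activity-dependent genes described next, Plcxd3 had 1 TGACG match and Kirrel2, Lrrc3b and Pcp4l1 had 0. A match gives only the letters of a window.

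Activity-dependent OSN genes were examined as a list of 6, chosen, like all lists here, with earlier results of these data known. Their median difference was 0.56, against −0.03 over all features, and 3 of 6 were higher with odor at an unadjusted p under 0.05 (4.12% of all features were), with 0 lower. In the fits of the values as deposited with limma's default prior, 0 members passed without the replicate block, and Pcdh10 alone passed with it. Their mean level was 12.11, 12.18, 12.16 and 11.95 on the odor arrays and 11.86, 11.14, 11.54 and 11.40 on the vehicle arrays, and the groups did not overlap. Without odor replicate 1 the median was 0.50. Centring on negative controls reduced it to 0.02, while the median of all features moved to −0.56.

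Kirrel2, an immunoglobulin superfamily adhesion protein, read 14.27, 13.86, 14.16 and 13.72 with odor and 13.79, 12.94, 13.36 and 12.65 with vehicle. It was higher in all 4 number pairs, but odor replicate 4 lay below vehicle replicate 1. The difference was 0.82 ± 0.26 (SE, limma adjusted p = 0.352, and 0.111 with the replicate block). Lrrc3b, a leucine-rich repeat membrane protein, read 12.23, 11.98, 12.62 and 11.78 with odor and 12.06, 10.12, 11.31 and 10.83 with vehicle. Its groups overlapped through vehicle replicate 1, and its difference was 1.07 ± 0.38 (SE, limma adjusted p = 0.383, and 0.152 with the block). It passed with the block where arrays were centred on receptors, a combination added later. In the other fraction Kirrel2 differed by 0.53 and Lrrc3b by 0.71. The remaining members, Plcxd3 at 0.30 ± 0.17, Pcp4l1 at −0.16 ± 0.22 and S100a5, did not reach an unadjusted p under 0.05.

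S100a5 read 14.65, 15.75, 15.48 and 15.48 with odor and 15.51, 15.44, 15.33 and 15.22 with vehicle. Odor replicate 1 was the lowest of all 8, and the other odor arrays were each above their numbered vehicle partner. The difference was −0.04 ± 0.20 (SE, adjusted p = 0.973, exact permutation p = 0.943). Without odor replicate 1 it was 0.19. The reporter's own gene was thus not shown to differ within this fraction, and its direction depended on that array. Because the sort was made on this reporter, the level of S100a5 within a fraction may be held in part by the sort. A comparison within the fraction cannot tell that apart from a lack of response. In the other fraction it was higher with odor by 0.28, in all 4 pairs.

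Axon sorting molecules, a list of 12 that shares Pcdh10 and Kirrel2 with the activity-dependent genes, had a median difference of 0.14. At an unadjusted p under 0.05, 3 were higher with odor and 0 lower (4.12% and 6.18% of all features). The third was Sema7a, a membrane-anchored semaphorin that acts between OSN axons and their targets. It read 13.81, 14.05, 13.99 and 13.91 with odor and 13.13, 13.55, 13.57 and 13.60 with vehicle. All odor arrays lay above all vehicle arrays, and the difference was 0.48 ± 0.12 (SE, limma adjusted p = 0.30, and 0.182 with the block). Centring on negative controls turned it to −0.06. The members Cntn4 (contactin 4, 0.16 ± 0.12), Nrp2 (neuropilin 2, −0.04 ± 0.15) and Kirrel3 (−0.03 ± 0.30) did not reach an unadjusted p under 0.05.

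**Figure D3:**
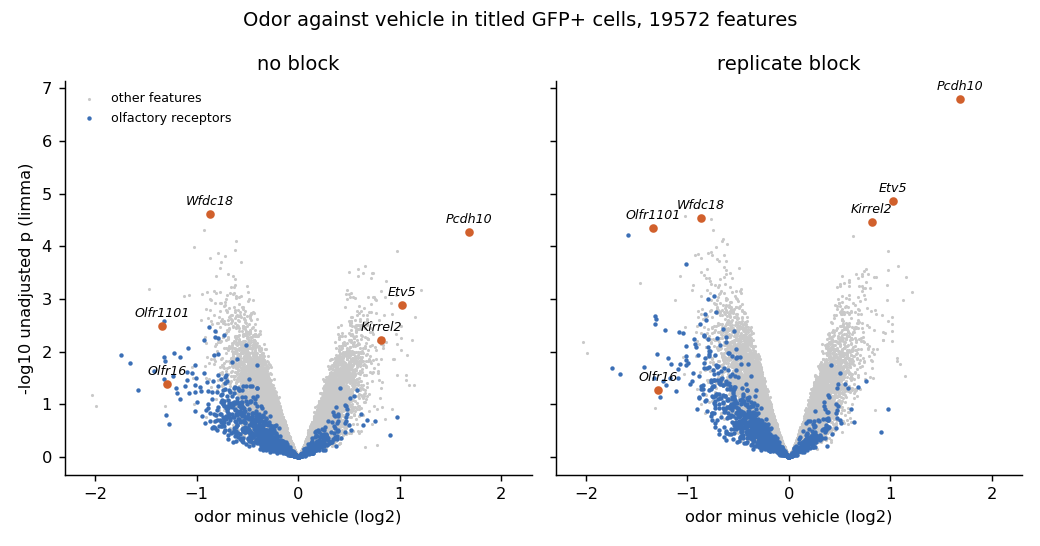
Odor minus vehicle (log2, horizontal) against −log10 of the unadjusted limma p (vertical) for 19572 features in titled GFP+ cells, without a block on the left and with the replicate block on the right; receptors are blue, other features grey and named genes orange. With the block Pcdh10, at 1.69, stands above all other features, and most receptors lie to the left of 0.

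Outside these lists the features with the smallest p were named by rule, and none passed adjustment, with the exception of Pcdh10 under the block. Among those higher with odor, Phf11c, a member of the PHD finger protein 11 family, read 14.27, 14.45, 14.31 and 14.13 with odor and 13.70, 13.68, 13.90 and 13.87 with vehicle. Its difference was 0.50 ± 0.11 (SE, limma adjusted p = 0.30), with no overlap, and centring on negative controls turned it to −0.03. The other 3 of this group, Amigo3, 1700092M07Rik and Cryba2, stayed below background on all 8 arrays, at means of 3.66 to 4.97, and no fold is given for them. Among those lower with odor, Ube2b, a ubiquitin-conjugating enzyme, read 11.24, 11.44, 11.16 and 11.32 with odor and 11.96, 11.96, 11.77 and 11.90 with vehicle. Its difference was −0.61 ± 0.12 (SE, limma adjusted p = 0.30). Tmem107, a protein of the ciliary transition zone, read 9.47, 10.17, 10.22 and 10.38 with odor and 11.03, 10.82, 11.05 and 11.04 with vehicle (−0.93 ± 0.17 SE, limma adjusted p = 0.30). For both genes every odor array lay below every vehicle array. In the other fraction the differences were −0.07 for Ube2b and −0.22 for Tmem107. Mdp1, a magnesium-dependent phosphatase, read 9.43 to 9.78 with odor and 10.04 to 10.26 with vehicle, while Wfdc18 (7.37 to 7.68 against 8.23 to 8.56) and Tmem242 (6.70 to 7.73 against 8.30 to 8.50) were below background throughout.

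With the replicate block and an intensity-dependent prior, a combination tried after the data were seen, 5 features passed: Pcdh10, Kirrel2, Etv5, Tle3 and Suclg1. Etv5, an ETS transcription factor, read 12.86, 11.66, 11.76 and 12.17 with odor and 11.23, 10.89, 10.78 and 11.45 with vehicle, with no overlap (1.03 ± 0.26, SE). It differed by 0.59 in the other fraction. Tle3, a transcriptional corepressor, was higher by 0.52 ± 0.18 and differed by 0.59 in the other fraction. Suclg1, a subunit of succinyl-CoA ligase in the citric acid cycle, was lower by 0.65 ± 0.18 on the log2 scale and differed by −0.08 in the other fraction. Under the planned blocked fit, Etv5, Tle3 and Suclg1 had adjusted p of 0.111, 0.152 and 0.127. These names were chosen after their values were seen.

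Olfactory receptors were lower with odor more often than higher. Of 1080 receptors, 0 passed in either direction in the limma fit. At an unadjusted p under 0.05, 54 were lower and 1 higher (6.18% and 4.12% of all features). In both directions together that is 5.09% of receptors against 10.3% of all features. With the replicate block, 112 of the 1080 were lower and 8 higher at that threshold (8.06% and 5.16% of all features), so the comparison with all features depended on the block. No receptor had every odor array above every vehicle array, and 12 had every odor array below, which is fewer in proportion than among all features (2.23% above and 3.05% below). The median difference was −0.22, with 828 below 0, 252 above and an interquartile range of −0.45 to −0.02. The size of this shift depended on the replicate 1 arrays. Without odor replicate 1 the median was −0.03, with 580 receptors below 0 and 500 above. Without both replicate 1 arrays, which leaves 3 number pairs, it was −0.11, with 703 below 0 and 377 above. The family is dim here, and 508 of 1080 receptors were above background on none of the 8 arrays. The receptor median of each array was 7.94, 8.82, 8.71 and 8.92 with odor and 8.59, 8.88, 8.81 and 9.18 with vehicle, and was lower with odor in each number pair. Centring on the receptor median itself left 0.04.

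**Figure D4:**
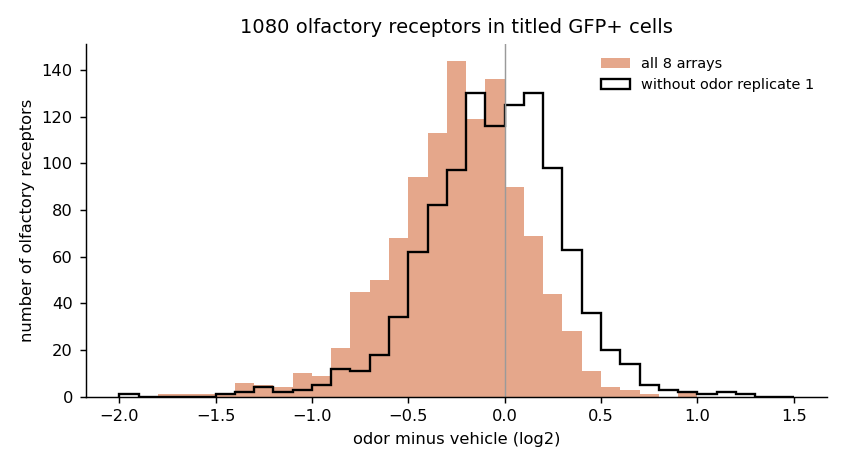
Number of olfactory receptors (vertical) by odor minus vehicle in titled GFP+ cells (log2, horizontal, steps of 0.1), filled in orange for all 8 arrays and outlined in black without odor replicate 1. The median moves from −0.22 to −0.03 when that array is left out.

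Of the receptors known to bind aldehydes, Olfr16 read 9.29, 10.28, 11.13 and 11.49 with odor and 11.71, 12.11, 11.22 and 12.31 with vehicle. It was lower with odor in all 4 number pairs, though odor replicate 4 lay above vehicle replicate 3, and it was above background on 3 odor and 4 vehicle arrays. The difference was −1.29 ± 0.58 (SE, limma adjusted p = 0.468, exact permutation p = 0.0571). Olfr16 was higher with odor in all 4 pairs of the other fraction, by 2.19. The difference between fractions was −3.48 (limma adjusted p = 1, exact permutation p over pools = 0.0571). Olfr2 was below background on all 8 arrays, at 7.50 to 9.59 with odor and 7.20 to 9.02 with vehicle (exact permutation p = 0.943).

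Among the receptors with the smallest p, Olfr724 read 9.31, 9.09, 9.26 and 9.80 with odor and 10.50, 10.02, 10.16 and 10.28 with vehicle, with no overlap (−0.87 ± 0.25 SE, limma adjusted p = 0.315). It was above background on 3 of 4 vehicle arrays and on 0 odor arrays. Olfr178 was above background on the same numbers of arrays and its groups overlapped (8.93 to 10.10 against 10.01 to 10.86). Olfr1109 read 7.41 to 8.35 with odor and 8.03 to 10.21 with vehicle, and was above background on 1 vehicle array. Olfr1101 and Olfr723 were below background on all 8 arrays. Olfr1101 read 5.88, 6.47, 6.64 and 4.82 with odor and 7.60, 7.91, 7.06 and 6.59 with vehicle, and was lower in every pair. Centring on negative controls called it without the block (limma adjusted p = 0.0121). Apart from that centring, it was called only with the block and with odor replicate 3 left out. At the higher end, Olfr204, Olfr59, Olfr761, Olfr555 and Olfr782 came first, all with an adjusted p above 0.48 in limma, and were below background on all 8 arrays. Of 15 trace amine-associated receptors, a second family of odor receptors, 0 had an unadjusted p under 0.05.

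Counting the number pairs alone, 152 receptors (14.1%) were lower with odor in all 4 pairs and 19 (1.76%) higher. Among 18492 other features the shares were 12.7% and 9.42%. Receptors lower in all 4 pairs here and higher in all 4 of the other fraction numbered 8 (0.741%), against 94 other features (0.508%). The 8 were Olfr16, Olfr1408, Olfr341, Olfr1058, Olfr617, Olfr657, Olfr669 and Olfr479. The opposite pattern occurred in 0 receptors and in 49 other features (0.265%). These names follow from the values themselves and carry no test.

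The question of where titled GFP+ cells differ in their response from the other fraction was tested directly. The contrast of the odor effects of both fractions gave 0 of 19572 features past adjustment (limma, 0%), and 739 at an unadjusted p under 0.05 (3.78%). The smallest p belonged to Dnmt3b, Vmn1r250, Skint5, Olfr774 and Hsd17b3, all of them below background on all 8 arrays titled GFP+. Olfr774 read 6.38, 6.10, 5.65 and 6.18 with odor and 6.77, 7.03, 6.40 and 7.40 with vehicle. Those values did not overlap, but all lay below the background threshold of their array.

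The transduction machinery itself differed little. Among 18 genes of odorant transduction and mature OSNs, which include the G protein subunit Gnal, the adenylyl cyclase Adcy3 and the channel subunit Cnga2, differences of all but 1 gene lay between −0.20 and 0.17. Their median was −0.07, and the SE of Gnal, Adcy3 and Cnga2 was 0.10 to 0.11. The exception, Cngb1, was below background on all 8 arrays. Omp differed by −0.06 ± 0.10 (SE, adjusted p = 0.899). Rtp1, which carries receptors to the cell surface, differed by −0.20 ± 0.11 (SE, adjusted p = 0.58). Immature OSN markers had a median of −0.10, with 0 of 15 at an unadjusted p under 0.05. Gap43, a growth-cone protein of young neurons, read 9.94 to 11.08 with odor and 10.02 to 11.16 with vehicle.

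Immediate-early genes, the fast transcriptional response to stimulation, and to handling and dissociation in general, varied in level: 16 of 29 features were above background on at least 4 arrays and 11 on none. Fos read 15.18, 13.52, 13.14 and 14.85 with odor and 15.69, 13.75, 14.26 and 15.12 with vehicle. It was lower with odor in all 4 number pairs, by 0.53 on average on a log2 scale. Without the block this was smaller than its SE (0.58, limma adjusted p = 0.809). With the replicate block the SE was 0.24 (limma unadjusted p = 0.0425, adjusted p = 0.356). Fos was also lower in all 4 pairs of the other fraction, by 0.64. Egr1 differed by 0.01 ± 0.45 (SE, adjusted p = 0.995). Among 29 features of 27 such genes, 1 was higher and 2 lower at an unadjusted p under 0.05, with a median of −0.15. That is 10.3% of the list and 10.3% of all features, so the count is at the background. Without vehicle replicate 1 the median was 0.12. The lower ones were Ier2 and Ier5. Ier5 read 10.12 to 10.29 with odor and 10.37 to 11.20 with vehicle, with no overlap. It was above background on 4 vehicle and 0 odor arrays. The background threshold, however, was 10.28 to 10.88 on the odor arrays and 9.14 to 10.08 on the vehicle arrays. The lower bound on the fold between group means was 1.22, lower with odor. This bound takes no account of sampling error (limma adjusted p = 0.435). The higher one was 1 of 3 features for Egr3, all below background on all 8 arrays.

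**Figure D5:**
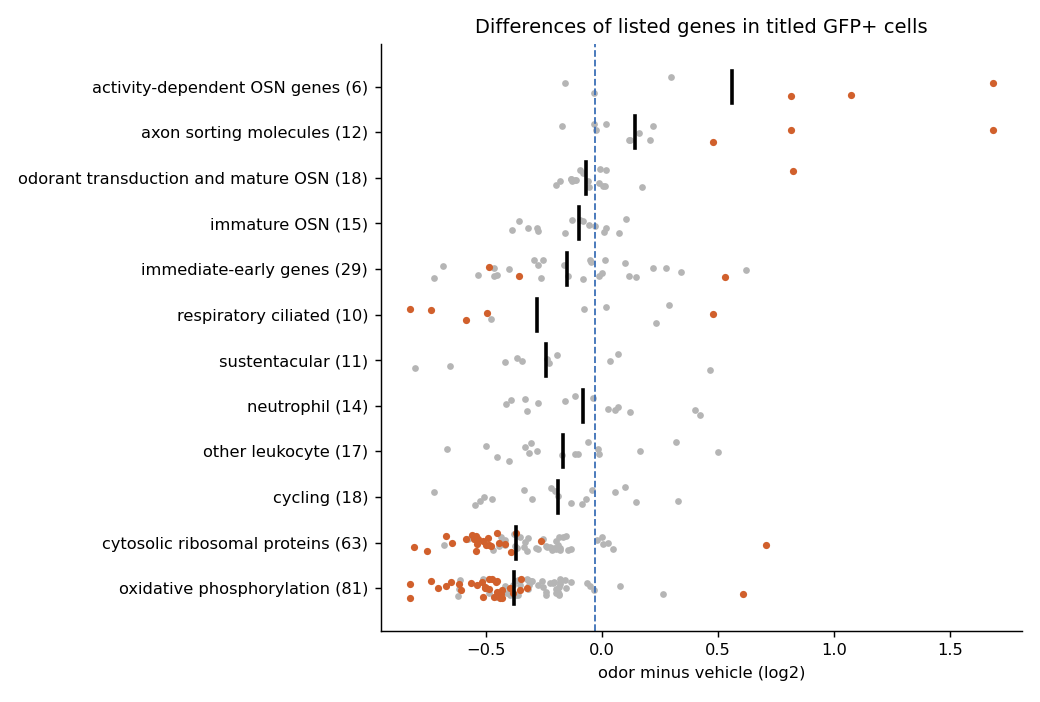
Odor minus vehicle (log2, horizontal) for the members of 12 gene lists in titled GFP+ cells, each point 1 feature, in orange where the unadjusted limma p is under 0.05, with black bars for list medians, the dashed line for the median of all features (−0.03) and the number of features in parentheses. Activity-dependent genes have the highest median (0.56), and ribosomal proteins (−0.37) and oxidative phosphorylation genes (−0.38) the lowest.

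Housekeeping genes were lower with odor as lists, and their shift was smaller without odor replicate 1. Of 63 cytosolic ribosomal protein genes, 22 were lower and 1 higher at an unadjusted p under 0.05 (6.18% and 4.12% of all features), with 0 past adjustment, and the median was −0.37. Rpl35 read 11.90, 12.78, 12.65 and 12.52 with odor and 13.30, 13.03, 13.06 and 13.15 with vehicle (−0.67 ± 0.18 SE, limma adjusted p = 0.315). Rps13 read 10.36, 10.53, 10.73 and 10.85 with odor and 11.17, 11.07, 11.03 and 11.37 with vehicle. For both genes every odor array lay below every vehicle array. The mean level of the list was 11.62, 12.43, 12.46 and 12.21 with odor and 12.78, 12.38, 12.54 and 12.40 with vehicle. Without odor replicate 1 the list median was −0.16, and without both replicate 1 arrays −0.06.

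Of 81 oxidative phosphorylation genes, which build the mitochondrial respiratory chain, 31 were lower and 1 higher at an unadjusted p under 0.05 (6.18% and 4.12% of all features), with 0 past adjustment. The median was −0.38, −0.15 without odor replicate 1 and −0.12 without both replicate 1 arrays. The mean level was 10.77 on odor replicate 1, 11.62 to 11.66 on the other odor arrays and 11.73 to 11.83 on the vehicle arrays. Uqcrfs1, the iron-sulfur subunit of complex III, read 11.31, 11.69, 11.75 and 11.86 with odor and 12.06, 12.16, 12.08 and 12.36 with vehicle (−0.51 ± 0.15 SE, limma adjusted p = 0.315). It was lower on every odor array than on any vehicle array. In the other fraction the list medians were −0.04 for ribosomal proteins and −0.06 for oxidative phosphorylation. Whether RNA quality or background moved these lists was not tested.

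Motile cilia genes of respiratory cells had a median of −0.28, with 4 of 10 lower and 1 higher at an unadjusted p under 0.05 (6.18% and 4.12% of all features), and −0.12 without odor replicate 1. Their mean level was 8.48, 8.83, 8.83 and 8.92 with odor and 8.93 to 9.07 with vehicle. Rsph1, a radial spoke protein of cilia, read 8.03, 8.60, 8.34 and 9.14 with odor and 9.29, 9.34, 9.17 and 9.61 with vehicle (limma adjusted p = 0.315). It was above background on 2 vehicle arrays only.

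Markers of other cell types varied between pools more than between groups. The mean neutrophil level was 14.04, 12.87, 13.75 and 12.18 with odor and 14.40, 12.76, 13.37 and 12.59 with vehicle, highest in replicate 1 of both groups. Other leukocyte genes (9.94, 9.07, 9.06 and 8.63 against 10.36, 8.87, 9.09 and 9.05) and cell cycle genes (9.58, 7.96, 8.21 and 7.51 against 9.73, 7.78, 8.52 and 8.06) were likewise highest in replicate 1 of both groups. In these 3 lists 0 genes had an unadjusted p under 0.05, of 14, 17 and 18. Their medians were −0.08, −0.17 and −0.19, and depended on the replicate 1 arrays. Without odor replicate 1 they were −0.24, −0.40 and −0.67, without vehicle replicate 1 they were 0.24, 0.24 and 0.21, and without both they were 0.08, −0.03 and −0.18. Erythroid genes likewise read 10.86 and 11.08 in replicate 1 and 7.66 to 9.73 elsewhere, and their median of −0.35 went to −0.97, 0.22 and −0.40 in the same order. Lyz2, a lysozyme of myeloid cells, differed by −0.10 ± 0.53 (SE, adjusted p = 0.972), S100a8 by 0.12 ± 0.41 (adjusted p = 0.956) and Cyp2g1 by 0.03 ± 0.55 (adjusted p = 0.991), all in the limma fit. With SEs of this size, a difference of the order seen for Kirrel2 would not have been resolved in these markers.

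Gland, microvillar and stress genes gave few single differences. Of 7 Bowman gland genes, 2 were lower and 0 higher at an unadjusted p under 0.05 (6.18% and 4.12% of all features), with a median of −0.04. Bpifb3, a secreted protein of the Bowman gland, read 9.71 to 10.97 with odor and 10.47 to 12.15 with vehicle (−1.03 ± 0.44 SE, limma adjusted p = 0.437), and Gpx6, a glutathione peroxidase of the same gland, differed by −0.86 ± 0.40 (adjusted p = 0.477). The groups overlapped for both genes. Sox9, a transcription factor of gland and progenitor cells, differed the other way (0.35 ± 0.32 SE), as did Bpifb5 and Sox10, both below background throughout. Foxi1, the transcription factor of ionocytes, was lower in all 4 pairs (9.05 to 10.59 against 9.86 to 10.72, limma adjusted p = 0.528). Of 12 microvillar and ionocyte genes and 11 sustentacular genes, 0 had an unadjusted p under 0.05. Among stress genes Hmox1, a heme oxygenase, read 10.98 to 11.59 with odor and 11.64 to 11.79 with vehicle (limma adjusted p = 0.438). Hspd1 (a mitochondrial chaperonin) and Atf4 (a stress transcription factor) were lower by 0.34 ± 0.14 and 0.31 ± 0.14 on the log2 scale (limma adjusted p of 0.432 and 0.477). Hsph1 of the heat shock list and Gclc of the oxidative stress list differed the other way, by 0.56 ± 0.33 and 0.31 ± 0.24. Their limma adjusted p were 0.593 and 0.702, and 0.222 and 0.315 with the block. By sign alone, 3 of 9 heat shock, 6 of 13 unfolded protein response and 2 of 7 oxidative stress features were higher. Aldehyde-metabolizing enzymes, which could act on these odorants, had a median of −0.02, with 0 of 19 at an unadjusted p under 0.05. Chemokine and interferon response genes also had 0 of 12 and 0 of 8.

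The remaining lists were mostly dim. Of 9 basal and progenitor genes, 7 were above background on no array, and 1 was higher and 2 lower at an unadjusted p under 0.05 (4.12% and 6.18% of all features). The lower ones were Hes6 (5.65 to 5.75 with odor and 6.14 to 6.61 with vehicle) and Sox2 (6.05 to 6.81 and 6.63 to 7.51), transcription factors of progenitors, both below background on all 8 arrays. Among endothelial and mesenchymal genes 1 of 11 was higher, Kdr, also below background throughout. Of 9 heat shock, 13 unfolded protein response and 7 oxidative stress features, 1, 2 and 1 were lower and 0 higher at that threshold, at which 6.18% of all features were lower. With the replicate block, 3 heat shock features, Hsph1 among them, were higher and 1 lower (5.16% and 8.06% of all features). For 5 ensheathing glia, 5 guanylyl cyclase D neuron, 4 erythroid and 2 vomeronasal genes the count was 0.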

How the data were processed

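The deposited log2 values of 16 Clariom S arrays, 1-colour mouse expression arrays, were made by the authors with Affymetrix Expression Console, per the submitters' processing notes. The unit was read from the range of the values. Version, background correction, normalization and genome build are not given in the sources used here. Per the labels, 50 to 100 ng of RNA went into biotinylated cRNA. All 16 value columns belonged to a labelled sample, and 0 were unused. Symbols came from the platform annotation and matched RefSeq identifiers for 19572 of 19572 features. Unnamed transcript clusters (2634) were fitted apart in limma. Of these, 0 passed with or without the replicate block, and 246 had an unadjusted p under 0.05 without it. Control probe sets were left out of the fits. The number of arrays limits precision.

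Odor was compared with vehicle in limma 3.58.1 (R 4.3.3) on the values as deposited, with 1 mean for each of 4 groups and Benjamini-Hochberg adjustment over all features at 0.05, after a check on simulated data. SEs come from it. Replicates were separate pools of mice. Replicate numbers were taken to pair the samples, since the deposited design text states simultaneous exposure. Deviations from group means correlated at 0.55, 0.20, 0.15 and 0.51 between odor and vehicle arrays titled GFP+ of equal number (0.18 to 0.38 in the other fraction). Between unequal numbers they correlated at −0.40 to 0.01, −0.26 to 0.13, −0.11 to 0.02 and −0.50 to 0.20 for odor replicates 1 to 4. The values of 0.20 and 0.15 for numbers 2 and 3 thus give the pairing less weight. The main model had no block, and the replicate block was an alternative. Exact permutation tests were two-sided (scipy 1.17.1). Other alternatives changed the scale between arrays, the prior, array weights, a filter on dim features and the arrays included. The rule named the 5 receptors and 5 other genes with the smallest p in each direction, the 5 with the smallest p for the difference between fractions, 10 fixed genes and the 2 members of each list with the smallest p. Members and lists were chosen with earlier results of these data known. For Ier5, the bound sets the dim group to its background threshold. Promoter windows existed for 15691 of 19505 genes.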

Additional observations from a re-analysis of the deposited data

Results flagged for a closer look

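Within groups of 4 arrays, 11 gene values lay apart from the other 3 of their group by Dixon's criterion at the 95% level, among 174 groups of 87 named features. Chance marks about 1 group in 20. Odor replicate 1 gave 5 of them: Ndufa6, a complex I subunit, at 8.95 against 9.90 to 10.04, Olfr59 at 9.91 against 9.29 to 9.37, Cd3e, a T cell gene, at 7.22 against 5.44 to 5.66, Car1, an erythroid carbonic anhydrase, at 11.51 against 7.93 to 8.47, and Hsd17b3 at 4.71 against 4.48 to 4.50. The negative control median of the same array, 6.06 against 5.76 to 5.78, stood apart too. Sema7a on vehicle replicate 1 read 13.13 against 13.55 to 13.60, and vehicle replicate 2 read 10.82 for Tmem107 against 11.03 to 11.05 and 5.24 for Npy against 4.06 to 4.24. The remaining values were Ndufa6 on vehicle replicate 3 (10.43 against 10.29 to 10.31), Ier5 on odor replicate 4 (10.12 against 10.28 to 10.29) and Hes6 on odor replicate 2 (5.75 against 5.65 to 5.66).

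For 6 named genes, all 4 number pairs differed one way in titled GFP+ cells and the opposite way in titled GFP− cells. The change in titled GFP+ minus that in titled GFP− cells was −3.48 for Olfr16, −1.32 for Dnmt3b, −0.96 for Tnf, −0.86 for Slc4a1, 1.05 for Skint5 and 0.74 for Hsd17b3. None passed the limma test of that difference over all features. Dnmt3b, Skint5 and Hsd17b3 were below background on all 8 arrays titled GFP+. These 3 had been named for a small p of that difference, a choice that favours opposite directions. Tnf was above background on 1 vehicle array titled GFP+ only, and its pair 4 there differed by −0.02. Lower here and higher there occurred in 0.741% of receptors and 0.508% of other features. The opposite occurred in 0 receptors and 0.265% of other features.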

How the results depend on the processing

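In limma, 0 features passed in the odor comparison as deposited and under quantile normalization, centring on tested features or receptors, or array weights. The same held with a trended robust prior, a pool block, 8 arrays alone, the dim-feature filter and each array left out. At an unadjusted p under 0.05 there were 802 to 2466 over these settings. The 802 belonged to the dim-feature filter, which tested 5667 features, so it is not the lowest share. Among settings that tested all 19572, centring on receptors gave the fewest (1236 higher and 47 lower). With the replicate block over 16 arrays, 1 passed (Pcdh10). It changed no other call, and the block on 8 arrays called 0. The blocked count was 1 to 2 with 1 array left out (Olfr1101 added without odor replicate 3), 2 centred on receptors (Lrrc3b added) and 5 with a trended robust prior. Without both replicate 1 arrays, also added later, it was 0 (Pcdh10 1.54, adjusted p = 0.0891), with fewer samples in the fit. Centring on negative controls called 2 features higher (Pcdh10 and Slc38a9), 8875 lower, 287 receptors among these, and 10989 in all with the block, and moved the median of all features to −0.56. Signal over background limits what could be seen: 12121 of 19572 features were above background on none of the 8 arrays, the filter left 5667 to test, and with the 99th percentile as threshold 605 to 1723 features per array were above it. The causes of these changes were not tested.

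The following values changed sign, among them Phf11c and Sema7a, whose groups did not overlap as deposited. Centring on negative controls gave Phf11c −0.03, Sema7a −0.06, Hsd17b3 −0.13, Egr3 0.00, Kdr −0.01, Olfr761 −0.12, Akr1b10 −0.08, Olfr782 −0.03, Olfr59 −0.07, Frzb −0.15, Cnga3 −0.36, Gclc −0.23, Calr4 −0.24, Npy −0.30, S100a8 −0.41, Olfr2 −0.48, Cyp2g1 −0.50 and Egr1 −0.52. Centring on receptors gave Rtp1 0.07, Car2 0.02, Omp 0.21, Lyz2 0.16, S100a5 0.23 and Gap43 0.24. Centring on tested features gave Omp 0.05, Lyz2 0.00, S100a5 0.07 and Gap43 0.08, and quantile normalization gave Gap43 0.07. Array weights gave S100a5 0.16, Olfr2 −0.38, Gap43 0.04 and Egr1 −0.08. With single arrays left out the ranges were −0.17 to 0.19 for S100a5, −0.43 to 0.36 for Olfr2, −0.23 to 0.19 for Gap43, −0.17 to 0.21 for Cyp2g1, −0.21 to 0.30 for Egr1, −0.20 to 0.43 for S100a8 and −0.37 to 0.39 for Lyz2. They were −0.77 to 0.11 for Elane, −0.67 to 0.00 for Prtn3, −0.52 to 0.03 for Car2, −0.93 to 0.00 for Slc4a1 and −1.38 to 0.13 for Car1.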
